A study of Mus musculus with 6 samples.

Results

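The metallothionein genes Mt1, Mt2 and Mt4 were followed in mouse dorsal skin during the first 6 days after depilation, in single-cell RNA-seq libraries. They were taken by symbol, as 3 of the 32285 genes that each count matrix lists. Metallothioneins are small cysteine-rich proteins of the cytosol that bind zinc and copper. Mt1 and Mt2 are found in most tissues and are known to be induced by metals through the transcription factor MTF1, and by glucocorticoids, oxidative stress and cytokines. Mt4 is known from the differentiating layers of stratified squamous epithelia, and Mt3, the remaining family member, from brain.

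Each of the 6 libraries came from wildtype male FVB mice aged p55-57, whose back skin had been shaved and waxed to start a new hair cycle. The time points are 0 h, then 4 and 16 h, then 2, 4 and 6 days (2 d, 4 d and 6 d) after depilation, and each library holds the digested skin of 2 mice, mixed at equal cell numbers, so that a time point is 1 library and mice cannot be told apart within it. The methods describe one digestion for resting skin and another for growing skin, and which of them each time point received is not given in the sources used here. Time, library, digestion and pooled mice therefore cannot be told apart, and no p-value between single time points is given.

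The libraries held 7307 to 13878 barcodes and 72634390 to 112370376 unique molecular identifiers (UMIs, which count captured RNA molecules). After filters on gene number and mitochondrial share, and removal of 4675 predicted doublets, 50502 of 61031 barcodes were analysed, and 0.71% of the distinct barcode sequences occurred in more than 1 library. Cells were grouped by clustering without the metallothioneins and named from marker genes, and every name below means "like" that type: interfollicular epidermal basal (IFE.B) and suprabasal (IFE.SB) cells, upper hair follicle basal (uHF.B) and suprabasal (uHF.SB) cells, outer bulge (OB), a Sncg bulge group (OB2), hair germ, inner bulge, companion layer, inner root sheath (IRS), hair matrix, sebaceous gland (SG), T cells, Langerhans cells, Melanocytes, and dermal papilla and fibroblast cells. The names were rebuilt here, so a difference from the study may come from them. Summed markers of cell types without a group of their own were low, at 0.991 to 10.4 CPM for endothelial, 2.46 to 23.4 for erythroid, 2.4 to 21.3 for macrophage and 11.7 to 57.9 for smooth muscle genes, and their part in the results was not tested.

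The 4 family members lie in 1 cluster on the plus strand of chromosome 8 (GRCm38), in the order Mt4 (ENSMUSG00000031757, chr8:94137204-94139031), Mt3 (ENSMUSG00000031760, chr8:94152607-94154148), Mt2 (ENSMUSG00000031762, chr8:94172618-94173567) and Mt1 (ENSMUSG00000031765, chr8:94178883-94180327). These intervals are from RefSeq. The GENCODE gene models differ from them, with Mt4 starting at 94137197, Mt2 ending at 94173568 and Mt1 starting at 94179082. By GENCODE there are 43131 bases from the start of Mt4 to the end of Mt1. The end of Mt2 lies 5514 bases before the start of Mt1. Each gene has 3 exons, with 183 coding bases in Mt1 and Mt2 and 186 in Mt4. The longest run of identical bases between Mt1 and Mt2 transcripts was 20, and no gene outside the family shared a run of 50 bases with a member, so reads of the members had no near-identical copy to be split with.

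The stretches before 1 annotated start of each member are shown because Mt1 and Mt2 followed each other across cell types while Mt4 did not. The sequences are from RefSeq (GRCm38.p6), 5′ to 3′ on the plus strand, and all 3 members matched the promoter table. Capitals mark cores of the metal response element, TGCACNC or TGCGCNC on either strand, which MTF1 is known to bind, and in Mt2 also 1 core of the antioxidant response element, TGACNNNGC.
Mt1, chr8:94178839-94179088: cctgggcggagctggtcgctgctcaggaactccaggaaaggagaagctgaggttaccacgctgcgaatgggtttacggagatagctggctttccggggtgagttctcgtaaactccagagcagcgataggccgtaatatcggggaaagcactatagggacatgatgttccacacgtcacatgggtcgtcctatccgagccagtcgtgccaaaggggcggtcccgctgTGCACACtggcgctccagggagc
Mt1, first bases from the start used, chr8:94179089-94179118: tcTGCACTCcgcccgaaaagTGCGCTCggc
Mt2, chr8:94172368-94172617: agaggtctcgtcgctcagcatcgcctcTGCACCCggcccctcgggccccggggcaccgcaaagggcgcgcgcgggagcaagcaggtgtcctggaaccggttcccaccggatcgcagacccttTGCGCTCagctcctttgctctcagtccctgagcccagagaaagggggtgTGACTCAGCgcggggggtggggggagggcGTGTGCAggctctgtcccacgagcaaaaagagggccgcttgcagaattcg
Mt2, first bases from the start used, chr8:94172618-94172647: ggtcGTGCGCAggcccaggggcgtgtgctg
Mt4, chr8:94136954-94137203: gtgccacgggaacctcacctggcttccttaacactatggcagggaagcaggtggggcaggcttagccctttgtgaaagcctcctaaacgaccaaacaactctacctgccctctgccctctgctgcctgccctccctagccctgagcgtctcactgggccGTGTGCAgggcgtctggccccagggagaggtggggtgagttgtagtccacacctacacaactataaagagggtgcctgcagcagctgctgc

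Counted from the start used as 1, the Mt1 window held 3 metal response element cores, at -23 to -17, 3 to 9 and 21 to 27. In the Mt2 window there were 4, at -223 to -217, -128 to -122, -50 to -44 and 5 to 11, the last 2 on the minus strand, and the antioxidant core lay at -79 to -71. The Mt4 window held 1, at -91 to -85 on the minus strand. Among 32851 mouse promoter windows of the same 300 bases, 25.7% held at least 1 such core, 1.97% at least 3 and 0.517% at least 4. TGCACNC alone was in 12.6%, TGCGCNC in 15.4% and TGACNNNGC in 12.4%. A match is a string of letters and not a shown binding site. The windows are anchored on 1 annotated start each, which for Mt1 lies inside the gene interval given above, so that most of its printed stretch before the window's start falls after the gene's first annotated base. The coding sequence began 222 bases after it in Mt1, 230 in Mt2 and 38 in Mt4, so elements nearer the coding sequence of Mt1 and Mt2 may lie outside them.

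**Figure D1:**
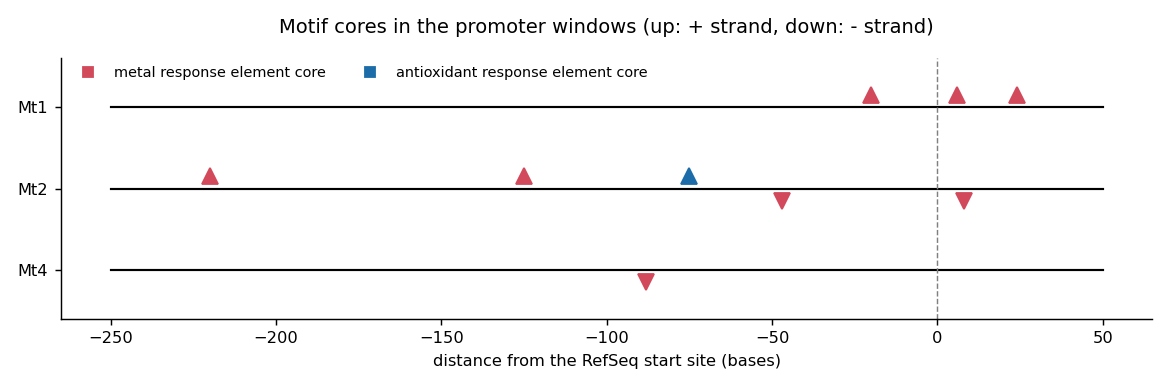
Metal response element cores (red) and the antioxidant response element core (blue) in the 300-base promoter windows of Mt1, Mt2 and Mt4, by distance in bases from the RefSeq start site. Triangles pointing up are on the plus strand and those pointing down on the minus strand. Mt2 holds 4 metal response element cores, Mt1 3 and Mt4 1.

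Mt1 was among the most abundant transcripts of the skin and Mt4 the most variable of the 3 between libraries. Levels are given as CPM, the UMIs of a gene per 1000000 UMIs summed over the cells of a group, and 6 values in time order run from 0 h to 6 d. The kit counts 1 UMI per captured 3′ end whatever the length of the gene, so levels of different members can be set side by side without a length term. With 3190 to 278488 UMIs of a member in each library, counting error was small against the differences between libraries: at 4 h, for example, Mt4 stood at 48.4 with an exact Poisson 95% interval of 46.8 to 50.1.

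Over all cells Mt1 was at 2891, 4227, 1862, 1379, 1319 and 2581 CPM in time order. Mt2 stood at 1182, 1286, 781, 470, 474 and 895 in the same order. Both were highest at 4 h and lowest at 2 d or 4 d, a 3.20-fold range for Mt1 and 2.74-fold for Mt2, but the highest Mt2 library was 0 h by the mean of CPM per cell (1307 against 1245 at 4 h) and without mitochondrial and ribosomal protein genes (1688 against 1662). Mt4 was at 293, 48.4, 315, 440, 128 and 331 CPM. Its range of 9.08-fold ran from the 4 h library to the 2 d library, and was 3.44-fold without the 4 h library. Ranked by UMIs in each library, Mt1 took place 74, 19, 106, 126, 120 and 85 among all genes, Mt2 138 to 268, and Mt4 277 to 395 except for place 2915 at 4 h and 1079 at 4 d. Mt3, by contrast, did not exceed 1.19 CPM in any library.

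The cell types that held these RNAs differed between the members. IFE.B cells held 50.4%, 62.2%, 49.9%, 46.2%, 28.4% and 32.0% of all Mt1 UMIs in time order, and 60.2%, 65.7%, 60.3%, 57.9%, 38.0% and 46.7% of those of Mt2. IFE.SB cells held 96.4%, 95.5%, 94.2%, 92.5%, 65.8% and 90.5% of the Mt4 UMIs. The lower share at 4 d stood beside fewer IFE.SB cells, 4.48% of the library against 16.2% to 22.1% in the others. Hair matrix cells, 8.3% of the 4 d library, held 24.2% of its Mt1, 30% of its Mt2 and 24.7% of its Mt4 UMIs.

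**Figure D2:**
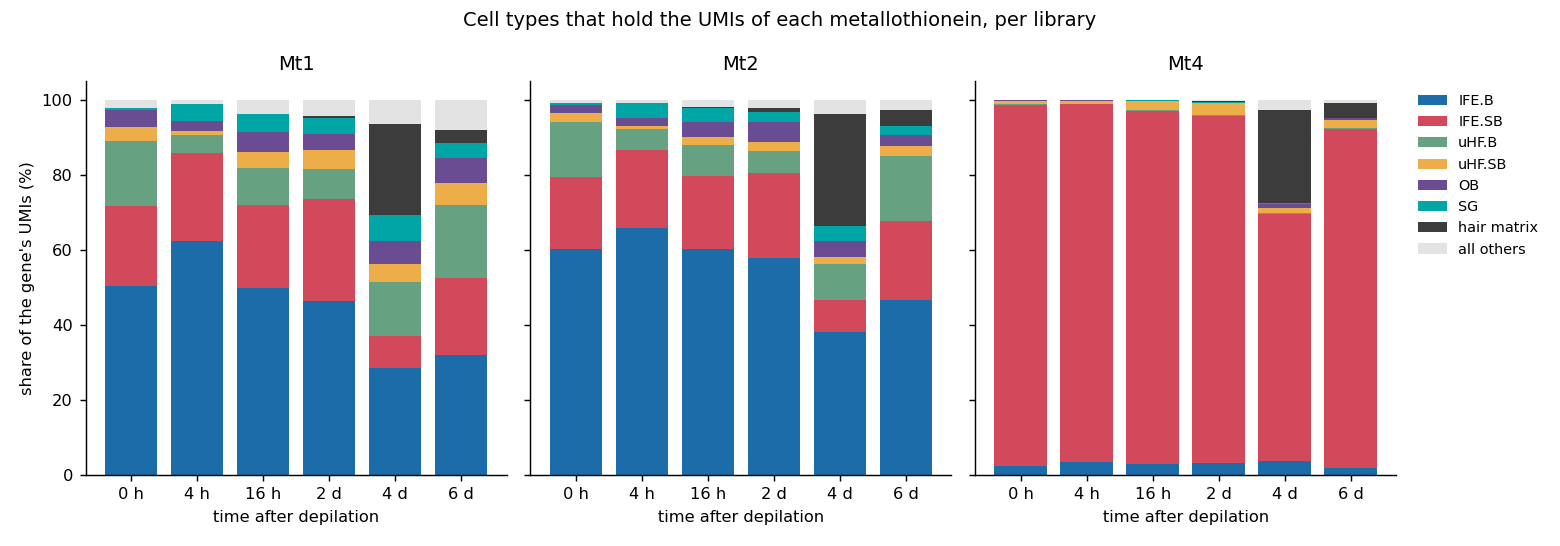
Share of the UMIs of Mt1, Mt2 and Mt4 held by each cell type (%, stacked to 100) in the 6 libraries, ordered by time after depilation. Basal interfollicular cells hold 49.9% or more of Mt1 and Mt2 up to 16 h, suprabasal interfollicular cells hold 65.8% or more of Mt4 in every library, and hair matrix cells hold 24.7% of Mt4 at 4 d.

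Mt4 was a transcript of the suprabasal interfollicular cells. In IFE.SB cells its level was 759, 163, 1065, 1344, 1030 and 1143 CPM in time order. The 4 h library stood apart below the other 5, which spanned 1.77-fold among themselves. In the cluster with Krt1, a keratin of the spinous layer, the values were 1002, 172, 1138, 1518, 1051 and 1533. In the cluster with Lor, which encodes the cornified envelope protein loricrin, they were 519, 150, 929, 1049, 1005 and 697, so the lower level at 4 h was seen in both layers.

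The low Mt4 level at 4 h was also visible in the share of IFE.SB cells with at least 1 Mt4 UMI. With each cell thinned to 2000 UMIs, this share was 61.3%, 20.1%, 60.2%, 72.7%, 54.0% and 65.2% in time order, with an exact binomial 95% interval of 17.9% to 22.4% at 4 h. Unthinned it was 82.2%, 50.2%, 77.5%, 84.7%, 70.6% and 79.5%. Cells at 4 h were not without the transcript: the 10% of IFE.SB cells with the most Mt4 held 56.4% of its UMIs there, and the highest cell had 107. In the 5 other libraries they held 37.5% to 48.7%. Intervals cover counting error and not the spread between mice.

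Other suprabasal genes did not all share this low value. On the log2(CPM + 1) scale, Mt4 in IFE.SB cells was 2.21 lower at 4 h than at 0 h (a difference of -2.21), where 120 of 9814 genes with at least 100 UMIs differed by more in that direction and the median gene by 0.16. Against 16 h the difference was -2.70, and 27 genes lay lower. Among the IFE.SB markers, Krt1 was at 3219 CPM at 0 h and 4596 at 4 h, Krt10 at 14735 and 11353, Lor at 11727 and 3530, and Flg, which encodes filaggrin, at 453 and 90.5. Summed over the marker list of 10 genes the level was 65373 and 45859, a difference of -0.51. Whether a different make-up of the suprabasal cells goes with the Mt4 value was not tested.

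Cells named hair matrix were the second site of Mt4. All 7 hair matrix markers with a value were raised in their cluster against the other follicle clusters. Their top 10 genes held only 1 of these (Krt35), beside 1 IRS marker (Krt28) and Dcn, a marker of dermal papilla and fibroblast cells. These cells numbered 916 at 4 d and 140 at 6 d, and at most 15 in any earlier library. Mt4 stood at 260 and 742 CPM, and in 20.6% and 43.8% of thinned cells (32.0% and 59.3% unthinned). IRS cells followed at 102 and 264. The uHF.SB cells came next, at 48.4, 9.86, 93.2, 112, 14.7 and 49.2, but they fall into clusters that differ. One is led by Flg, Krt1 and Krt10 and has 5 IFE.SB markers and 0 uHF.SB markers among its top 10 genes, and Mt4 stood there at 71.0, 13.9, 133, 182.5, 29.8 and 72.5. In the uHF.SB cells outside it Mt4 was at 4.88, 0, 16.0, 14.2, 3.18 and 12.7, from 0 to 57 UMIs, so the uHF.SB level rests on that cluster.

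In T cells, which should lack Mt4, its level was 21.0, 1.13, 13.9, 35.6, 7.87 and 17.7 CPM, from 1 to 64 UMIs, and 0.408% to 4.73% of thinned cells had a UMI. Median depth was 2020.5 to 2701.5 UMIs in T cells and 8112.5 to 12301 in IFE.SB cells. This low level moved with that of the whole library, at 2.34% to 8.1% of it, near the 2.03% to 8.68% for Krt10. The uHF.SB cells outside the cluster led by Flg lay below T cells in 5 libraries. All 6 uHF.B values (0.225 to 13.7) lay below those of T cells in the same library. OB values (2.2 to 22.9) lay below the T cell values in 4 libraries. IFE.B levels of 16.0, 3.53, 22.9, 43.8, 27.9 and 29.5 exceeded the T cell level in 5 libraries, with 0.758% to 7.1% of thinned cells. Relative to the library median, depth was 0.29 and 0.352 in the T cell clusters and 1.04 in IFE.B cells. The same amount of free RNA per barcode would make up a smaller share of deeper cells, so T cell CPM may overstate their background. Whether any of these levels exceed free RNA was not tested.

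**Figure D3:**
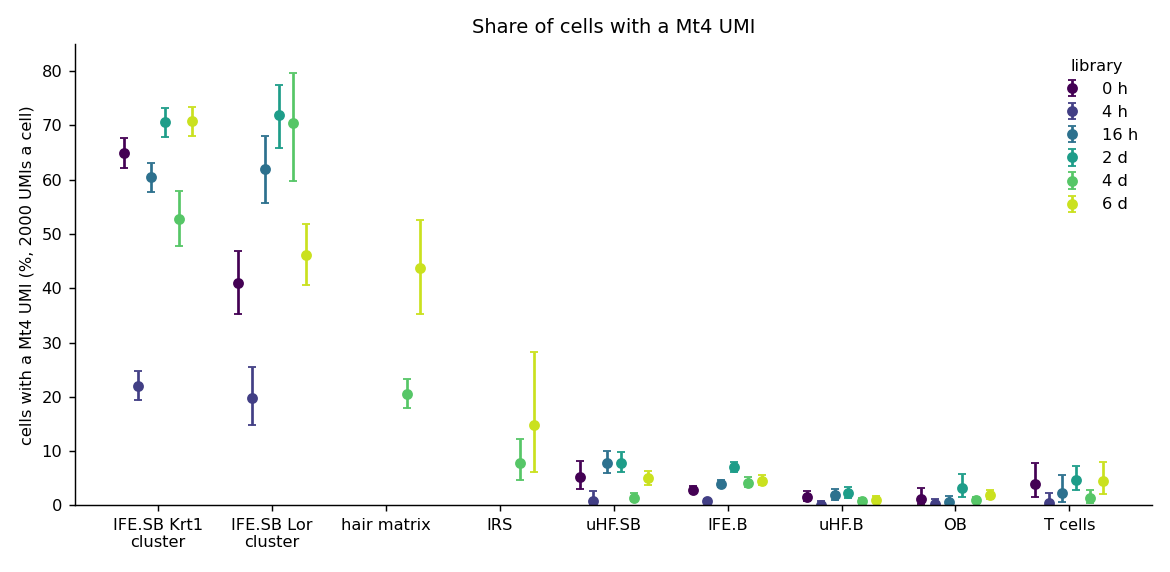
Share of cells with at least 1 Mt4 UMI after thinning each cell to 2000 UMIs (%), by cell type and library, with exact binomial 95% intervals that cover counting error only. The 4 h point is the lowest of both suprabasal interfollicular clusters, hair matrix reaches 43.8% at 6 d, and the basal and bulge groups lie near the T cells.

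Mt1 and Mt2 were present in all keratinocyte groups, and their time profiles are given by group. In IFE.B cells Mt1 was at 3591, 5609, 2413, 1948, 2245 and 4206 CPM in time order. In IFE.SB cells it was at 1642, 3504, 1468, 1241, 1371 and 2023. Both epidermal groups were highest at 4 h and lowest at 2 d. The Lor cluster went from 543 at 0 h to 2152 at 4 h, and lay between 653 and 772 later.

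The uHF.B, uHF.SB and OB cells were highest at 0 h instead. Mt1 in uHF.B cells was at 4598 CPM at 0 h, then 3079, 1783, 1216, 1856 and 3700. In uHF.SB cells it was at 2072, 1225, 935, 576, 494 and 1047. Their cluster led by Cst6, Defb6 and Krt79, with 5 uHF.SB markers among its top 10 genes, had its lowest Mt1 at 2 d (489). The cluster led by Flg had it at 4 d (301). Both were highest at 0 h, with ranges of 7.09-fold and 4.44-fold. In OB cells, a group whose make-up changed with time, Mt1 was at 4828, 3147, 2596, 1880, 528 and 1870, a 9.14-fold range that was 2.58-fold without the 4 d library.

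Different clusters held the OB cells at different times, so the values are also given within each. In the OB cluster led by Krt24 and Cd34, which held 268 of the 316 OB cells at 0 h, Mt1 was at 4594, 4687, 2956, 1491, 1142 and 2179 CPM. In the OB cluster led by Sfrp1 and Col14a1, which held 1531 of 1717 at 4 d, it was at 5922, 2155, 2376, 1947, 487 and 1775. The first cluster had 5 OB markers among its top 10 genes and the second 2, without Cd34 or Krt24. Levels at 4 d were the lowest in both clusters, while the 4 h level was close to that of 0 h in the first cluster and lower in the second. The range was 4.10-fold in the first and 12.2-fold in the second, so the range of the whole OB group is not that of 1 population. OB2 cells, the Sncg group, showed 4250, 2831, 3587, 3346, 1259 and 4289, again lowest at 4 d. Hair germ cells, the progenitors below the bulge, were at 3822, 1701, 2341, 2146, 1279 and 4063.

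In IFE.B cells Mt2 was at 1753, 1803, 1221, 831, 1077 and 2127 CPM in time order, with its highest value at 6 d. In IFE.SB cells the values were 609, 940, 545, 351, 499 and 718. Here only the suprabasal group was clearly higher at 4 h than at 0 h.

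In uHF.B cells Mt2 was at 1583, 1066, 621, 312, 446 and 1149 CPM, in uHF.SB cells at 503, 303, 190, 93.7, 69.9 and 158, and in OB cells at 1020, 782, 797, 764, 132 and 279. All 3 were highest at 0 h, and the low point was 2 d in uHF.B and 4 d in the other two groups. The highest value was 5.08-fold the lowest in uHF.B, 7.20-fold in uHF.SB and 7.70-fold in OB cells. Without the 4 d library the range in OB cells was 3.66-fold, and without the 0 h library that in uHF.SB cells was 4.34-fold. Within uHF.SB cells, the cluster led by Cst6, Defb6 and Krt79 had its lowest Mt2 at 2 d (57.7), a 12.6-fold range. The cluster led by Flg had it at 4 d (56.2), a 6.36-fold range.

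Between 0 h and 4 h Mt1 was higher by 0.64 on the log2 scale in IFE.B and by 1.09 in IFE.SB cells, while its differences were -0.58 in uHF.B, -0.76 in uHF.SB and -0.62 in OB cells. For Mt2 they were 0.04, 0.62, -0.57, -0.73 and -0.38. Within the OB cluster led by Krt24 and Cd34 they were 0.03 for Mt1 and -0.12 for Mt2. Outside the keratinocytes both signs occurred. Mt1 and Mt2 differed by -0.76 and -1.39 in Melanocytes, -0.60 and -0.32 in T cells, and 0.94 and 0.11 in Langerhans cells. Each side of these differences is 1 library, and the differences between cell types were not tested. Genes known to answer to tissue dissociation moved as well: the sum of their list was 25321 CPM in IFE.B cells at 0 h and 13948 at 4 h, and 27753 and 10015 in uHF.B cells. Their part in the metallothionein levels was not tested.

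**Figure D4:**
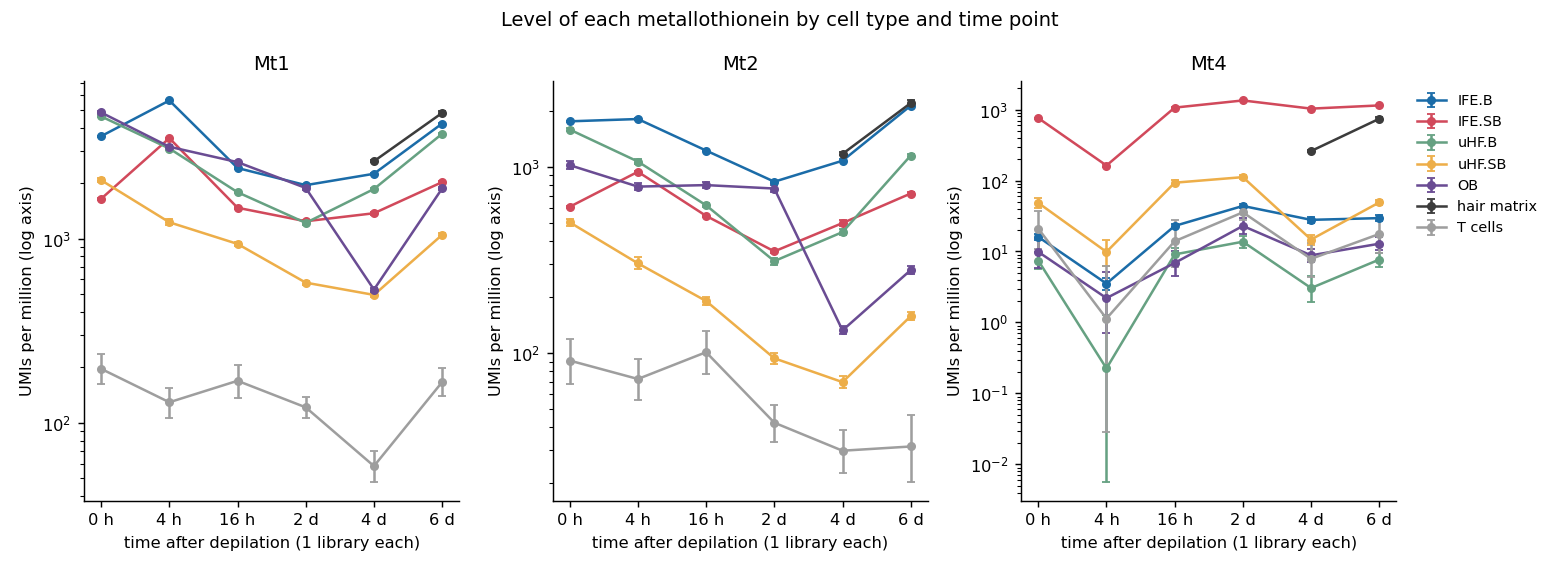
Level of Mt1, Mt2 and Mt4 (CPM, log axis) in 7 cell types against time after depilation, with 1 library per point and exact Poisson 95% intervals that cover counting error only. Mt1 peaks at 4 h in both interfollicular groups (5609 and 3504) but not in the hair follicle groups plotted at that time, and Mt4 is lowest at 4 h in each group sampled then.

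Ordered by the median over libraries, Mt1 was highest in hair matrix (2626 at 4 d and 4803 at 6 d), OB2, IFE.B, Melanocytes, uHF.B, hair germ and OB cells, with medians from 3715 to 2238 CPM. The ranges of neighbours in this order overlapped over libraries, although hair matrix lay above OB2 in both libraries that had the 2 groups. IFE.SB, SG, inner bulge, uHF.SB, IRS, companion layer and dermal papilla and fibroblast cells followed with medians of 1555 to 474. Langerhans cells (156 to 464) exceeded T cells (58.3 to 196) in 6 of 6 libraries. T cells held Mt1 at 3.06% to 9.08% of the library level, against 3.47% to 6.55% for Krt14, a keratin they should lack. Within libraries the Mt1 value was above that of Krt14 in all but the 4 h library, as at 16 h (9.08% against 4.61%). Mt2 in T cells was at 3.52% to 12.9%. Whether T cells express either gene was not tested.

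For Mt2 the order was hair matrix (1172 and 2196), IFE.B, uHF.B, OB and IFE.SB cells, with medians from 1684 to 577. IFE.B exceeded uHF.B in 6 of 6 libraries. The lowest medians were those of T cells (57.4) and Langerhans cells (54.9).

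Mt1 exceeded Mt2 in every keratinocyte group, by a factor that depended on the group. The ratio of their UMIs was 1.98 to 3.11 in IFE.B, 2.19 to 2.24 in hair matrix, 2.87 to 4.16 in uHF.B, 4.04 to 7.08 in uHF.SB, 2.46 to 6.70 in OB and 4.96 to 13.7 in OB2 cells. Over the whole library it was 2.38 to 3.29. The ranges of OB2 and uHF.SB did not overlap those of IFE.B and hair matrix.

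Across 78 sums of cell type and library, Mt1 and Mt2 had a Pearson correlation of 0.893 in log2 level, against 0.0407 for Mt1 with Mt4 and 0.155 for Mt2 with Mt4. The sums of 1 library share their depth and free RNA, and these are descriptions. Among 14669 genes the highest correlations with Mt1 after Mt2 were those of the transcription factor Myc (0.778), the oncostatin M receptor Osmr (0.766), the Notch-responsive repressor Hes1 (0.735) and the chemokine Cxcl14 (0.726). Next to Mt2, after Mt1, stood the semaphorin Sema3c (0.754), the glutathione peroxidase Gpx1 (0.734) and the nucleolar genes Gnl3 (0.709) and Nop58 (0.708). The genes most like Mt4 were the transcription factor Sp6 (0.770), the threonine dehydrogenase Tdh (0.747), Krt10 (0.743), the myosin light chain kinase Mylk3 (0.741) and the calcium binding Tesc (0.737).

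Mt1 and Mt2 were also paired over single cells, on log2(CPM + 100) per cell, and Mt4 followed them more weakly. Within hair matrix cells Mt1 and Mt2 had a correlation over cells of 0.899 at 4 d (916 cells) and 0.911 at 6 d (140 cells), where that of Mt1 with Mt4 was 0.389 and 0.163. In IFE.SB cells Mt1 and Mt2 gave 0.588 to 0.792 over the 6 libraries, and Mt1 with Mt4 -0.0633 to 0.278. Among IRS cells Mt1 with Mt2 gave 0.797 at 4 d (222 cells) and 0.714 at 6 d (49 cells). Mt4 there gave 0.420 and 0.167 with Mt1, and 0.454 and 0.321 with Mt2. In IFE.B cells Mt1 with Mt2 gave 0.510 to 0.653. Cells of 1 library share their source, so these values carry no test.

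Cell types were compared within libraries, with the summed counts of the 6 libraries and the library as a block, by edgeR's quasi-likelihood test with Benjamini-Hochberg adjustment over all genes. Here the libraries serve as replicates although they differ in time, so the test asks for a difference common to the time points. The members took no part in the clustering, but cells were grouped on genes that may vary with them. Of 12 values, 3 members in 4 pairs of cell types, 8 passed an adjusted p of 0.05.

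From the basal to the suprabasal layer of the epidermis Mt4 was higher and Mt1 and Mt2 were lower. The log2 fold change of IFE.SB against IFE.B was 5.53 for Mt4 (SE 0.108, adjusted p = 2.9e-09), -0.63 for Mt1 (SE 0.068, adjusted p = 4.28e-05) and -1.06 for Mt2 (SE 0.069, adjusted p = 2.08e-06). The same direction was seen in 6 of 6 libraries for each member, with mean differences of 5.24 ± 0.22, -0.82 ± 0.21 and -1.26 ± 0.24 (SD, n = 6, two-sided exact sign-flip permutation p = 0.03125 each, the smallest that 6 libraries allow). In this pair 29.5% of the genes tested were called higher and 33.1% lower, so the calls themselves are common. The size of the Mt4 difference is set against a low basal level, of which the free RNA part was not tested.

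In the upper hair follicle Mt1 and Mt2 were lower in the suprabasal cells, and the Mt4 difference rested on 1 cluster. The log2 fold change of uHF.SB against uHF.B was 3.10 for Mt4 (SE 0.154, adjusted p = 3.45e-08), -1.22 for Mt1 (SE 0.113, adjusted p = 4.59e-06) and -1.92 for Mt2 (SE 0.154, adjusted p = 5.74e-06), where 28.5% of genes were called higher and 30.1% lower. Over libraries the mean differences were 2.72 ± 0.48, -1.37 ± 0.40 and -2.07 ± 0.54, each in 6 of 6. The largest Mt1 and Mt2 differences were those at 4 d and 6 d. With predicted doublets kept the Mt4 value was 2.25. In a fit chosen after seeing the data, the uHF.SB cells outside the cluster led by Flg, Krt1 and Krt10 gave 0.44 for Mt4 (SE 0.196, adjusted p = 0.0708), -0.997 for Mt1 (SE 0.120, adjusted p = 0.000149) and -1.77 for Mt2 (SE 0.197, adjusted p = 0.00024) by edgeR's quasi-likelihood test, where 26.1% of genes were called higher and 28.6% lower. Cells of that cluster alone gave 3.81 for Mt4 (SE 0.159, adjusted p = 8.45e-09), where 25.5% were called higher.

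Between the basal groups, uHF.B cells had less Mt2 and Mt4 than IFE.B cells, with log2 fold changes of -1.02 (SE 0.172, adjusted p = 0.00207) and -1.95 (SE 0.268, adjusted p = 0.00065). In this pair 16.1% of genes were called higher and 20% lower. The 2 groups share part of their markers. The top 10 genes of uHF.B cells held 2 uHF.B and 2 IFE.B markers, and those of IFE.B cells 3 IFE.B markers and 1 uHF.B marker. Both levels of Mt4 were low, with those of uHF.B cells below the T cell level, and the Mt4 value was -0.82 with predicted doublets kept. Mt1 missed the threshold at -0.46 (SE 0.159, adjusted p = 0.0513), being lower in 5 libraries and higher at 0 h. Without the 0 h library it was -0.63 (adjusted p = 0.00208).

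For OB against uHF.B none of the members passed, where 14.6% of genes were called higher and 10.8% lower. The log2 fold changes were -0.37 for Mt1 (SE 0.333, adjusted p = 0.46), -0.68 for Mt2 (SE 0.438, adjusted p = 0.303) and 0.54 for Mt4 (SE 0.284, adjusted p = 0.201). For Mt1 the OB level was higher in the 4 libraries up to 2 d, by 0.03 to 0.63, and lower at 4 d by -1.81 and at 6 d by -0.98. The Mt4 value turned to -1.15 (adjusted p = 0.00134) with predicted doublets kept and to -0.16 (adjusted p = 0.63) at doubled clustering resolution. The free RNA part of these low Mt4 levels was not tested. The p-values measure how much the difference within a library varied over the 6 pooled libraries, which also differ in time. Without the library block 5 of the 12 values passed. The share of all genes called without the block is not given here.

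**Figure D5:**
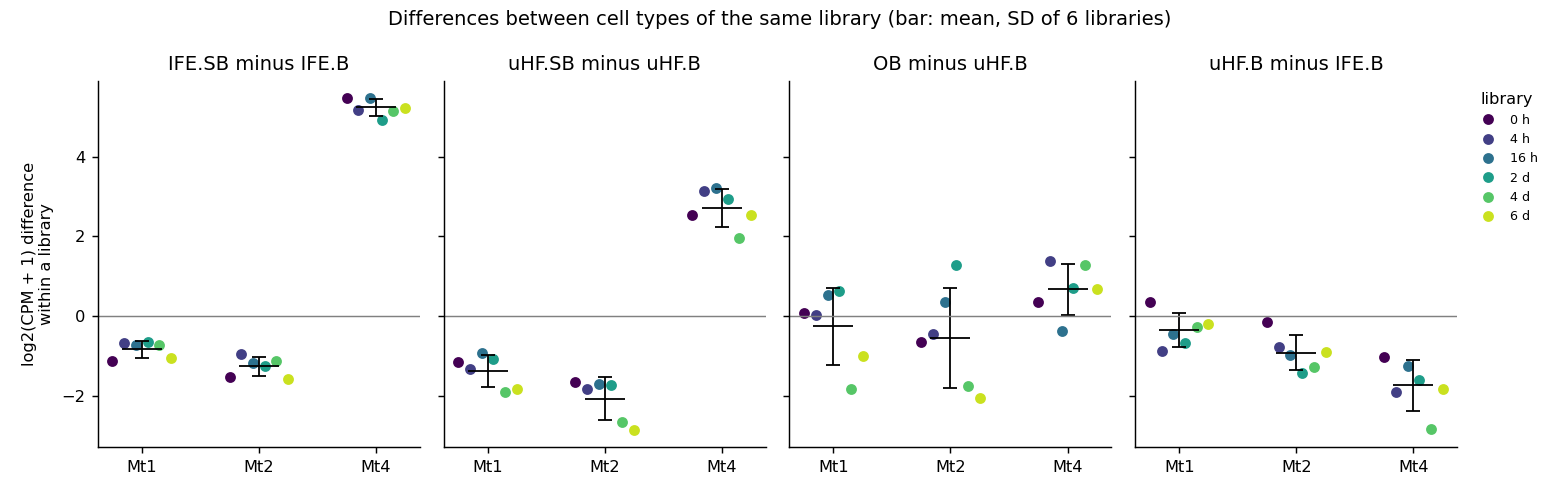
Difference in log2(CPM + 1) between 2 cell types of the same library for Mt1, Mt2 and Mt4, with 1 point per library and the mean and SD of the 6 libraries as bars. Mt4 lies above 0 and Mt1 and Mt2 below 0 in both suprabasal against basal comparisons in 6 of 6 libraries, whereas the bulge comparison holds values on both sides of 0.

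A curve over time was fitted in each of the 10 cell types with at least 20 cells in every library, as a natural cubic spline of hours. None of the 28 tests of a member passed an adjusted p of 0.05 by edgeR's quasi-likelihood test, 10 had an unadjusted p under 0.05, and 3 of 26 passed by DESeq2. For the unadjusted and DESeq2 counts the share of all genes is not given here. Mt4 was too low to be tested in OB2 cells and Melanocytes. Few genes at all were called: 0.0273% in OB, 0.0514% in T cells, 0.0161% in Langerhans cells, 4.47% in Melanocytes and 0% in IFE.B, IFE.SB, uHF.B, uHF.SB, OB2 and hair germ cells. The lowest adjusted p of a member was 0.284, for Mt1 in OB cells (unadjusted p = 0.0172).

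With 6 libraries this curve leaves little spread to judge by, and a value that stands apart in 1 library only, such as Mt4 at 4 h in IFE.SB cells (unadjusted p = 0.502), is not followed by it. Without the 0 h library 15 of the 28 tests passed, including each member in uHF.B, OB, hair germ and T cells, and without the 4 h library 4 did. Each such fit keeps 1 residual degree of freedom, and the share of all genes it called is not given here. These counts are not read as a result about the members. The time profiles above are therefore descriptions of 6 libraries.

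Genes that handle the same metals, or that act upstream, were read in the same comparisons. These lists were chosen with earlier results known, and their counts stand beside the shares of all genes given above. The uHF.SB group here includes the cluster led by Flg, Krt1 and Krt10. Mtf1, the metal-responsive transcription factor, was at 17.8 to 34.4 CPM in the libraries and highest at 4 h. It was higher in IFE.SB than IFE.B cells (log2 fold change 0.73, adjusted p = 1e-05), higher in uHF.SB than uHF.B cells (0.98, adjusted p = 3.5e-06) and lower in uHF.B than IFE.B cells (-0.51, adjusted p = 0.0014). In both layers its direction was that of Mt4 and opposite to that of Mt1 and Mt2.

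Zinc exporters of the Slc30a family had 3 of 7 tested genes higher and 2 lower in IFE.SB against IFE.B cells, with a median log2 fold change of 0.00 against -0.04 for all genes, and 4 of 6 higher and 1 lower in uHF.SB against uHF.B cells (median 0.41 against -0.02). Of those with the highest levels, Slc30a4 was higher in both (1.13 and 0.53), Slc30a5 was lower in both (-0.34 and -0.36), and Slc30a9 was higher in the follicle (0.30), with a value of -0.03 in the epidermis that missed the threshold. Slc30a1, the exporter of the cell surface that MTF1 is known to induce, was named after its values were seen: it was higher by 1.61 and 0.86 and reached 194 CPM in IRS cells at 4 d.

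Zinc importers of the Slc39a family had 6 of 11 tested genes higher and 3 lower in the epidermal layers (median 0.29) and 5 higher and 4 lower in those of the follicle (median 0.12). Slc39a1 was lower in both (-0.39 and -0.27). Slc39a10 was lower in uHF.SB than uHF.B cells (-0.86), and had its highest level, 639 CPM, in hair matrix cells at 4 d, the group with the highest Mt1 and Mt2 medians. Slc39a6 was lower in uHF.B than IFE.B cells (-1.71). Between these basal groups 1 exporter of 7 was higher and 1 lower, and 2 importers of 11 higher and 2 lower. In OB against uHF.B cells 1 of 6 exporters was higher, and 1 importer of 11 was higher and 1 lower.

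Copper handling genes had 5 of 8 higher and 1 lower in each suprabasal group, with medians of 0.47 in both. The copper chaperone Atox1 was higher by 0.37 and 0.46, the mitochondrial copper chaperone Cox17 by 0.57 and 0.48, and the transporter Slc31a2 by 1.41 and 1.68. Commd1, with a level above those of Cox17 and Slc31a2, was at 0.03 in the epidermis and short of the threshold. The gene called lower in the epidermis was Sod1 (-1.30). The copper list had a median of -0.07 in OB against uHF.B cells, and in uHF.B against IFE.B cells 1 of 8 was higher and 2 were lower.

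Lists of possible upstream signals split in both directions. Nrf2 targets had 4 of 9 higher and 3 lower in IFE.SB against IFE.B cells and 3 higher and 3 lower in uHF.SB against uHF.B cells. Of those with the highest levels, Txnrd1 was at 0.29 in the epidermis and short of the threshold, and Gclm was higher there (0.47). The glutathione reductase Gsr was lower in both (-1.18 and -1.49). Glucocorticoid targets had 2 of 7 higher and 2 lower, and 1 higher and 5 lower, with Klf9, a transcription factor, lower in both (-0.98 and -0.95) and the phosphatase Dusp1 lower in the epidermis only by its call (-0.73, against 0.06 in the follicle, a difference not tested). The Stat3 pathway had 1 of 6 higher and 3 lower, and 2 higher and 2 lower, and its feedback inhibitor Socs3 was lower in both (-0.95 and -0.61), while Stat3 itself was higher in the follicle (0.44). Dissociation stress genes had 2 of 10 higher and 3 lower, and 3 higher and 0 lower, with Fos, an immediate early transcription factor, at -0.46 and past the threshold in the epidermis and at -0.04 and short of it in the follicle.

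Between uHF.B and IFE.B cells the Nrf2 list had 2 of 9 higher and 4 lower, the glucocorticoid list 2 of 7 and 3, the Stat3 list 0 of 6 and 3, and the dissociation list 1 of 10 and 6. In OB against uHF.B cells the counts were 1 of 8 and 2, 1 of 7 and 1, 0 of 6 and 2, and 2 of 10 and 0. In the time curves 10 listed genes passed, each in Melanocytes, 6 of them from the dissociation list.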

How the data were processed

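Single-cell libraries of dorsal skin at 6 time points were analysed from the deposited gene by barcode matrices of raw UMI counts, which the authors made with Cell Ranger 6.1.2 and the mouse genome mm10, according to the submitters' processing notes. The annotation release is not given in the sources used here. The matrices list 32285 genes, and each library pools 2 mice.

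Barcodes with 500 to 7000 detected genes and at most 10% mitochondrial UMIs were kept (55177), and 4675 doublets predicted by Scrublet (scanpy 1.11.5, expected rate 0.8% per 1000 barcodes) were removed. The libraries were integrated and clustered with Seurat 5.3.0, and then the hair follicle cells again. The metallothioneins, list genes, cell cycle and mitochondrial genes were kept out of the clustering (700 genes). Clusters were named from marker genes, and 77 cells had no type. The marker Krt85 has no value here.

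Counts were summed per cell type and library (at least 20 cells). Levels carry exact Poisson and shares exact Clopper-Pearson intervals at 95%, for counting error only, and cells were thinned to 2000 UMIs for shares, leaving out 83 to 626 shallower cells per library. Pairs of cell types and time curves (natural cubic spline, df 3) were tested with edgeR 4.0.16 quasi-likelihood, p-values adjusted by Benjamini-Hochberg across every tested gene and a threshold of 0.05, with DESeq2 1.42.0 as an alternative. The scripts were tested on simulated data. For each member the 5 genes with the highest Pearson correlation were named, among genes with at least 100 UMIs, and of each list those of its genes with the highest levels. The members, gene lists and tests were chosen with earlier results of these data known. A comparison of sebaceous gland with uHF.B cells was not run, as the 0 h library held 14 SG cells.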

Additional observations from a re-analysis of the deposited data

Results flagged for a closer look

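Between 0 h and 4 h the Mt1 and Mt2 differences had opposite signs in the IFE groups and in uHF.B, uHF.SB and OB cells. On the log2(CPM + 1) scale Mt1 at 4 h minus 0 h was 0.64 in IFE.B and 1.09 in IFE.SB cells, and -0.58 in uHF.B, -0.76 in uHF.SB and -0.62 in OB cells. For Mt2 the differences were 0.041 in IFE.B, 0.62 in IFE.SB, -0.57 in uHF.B, -0.73 in uHF.SB and -0.38 in OB cells. Within the OB cluster led by Krt24 and Cd34, which held 268 of 316 OB cells at 0 h, they were 0.03 for Mt1 and -0.12 for Mt2. Lower values at 4 h were not confined to the follicle. Mt1 and Mt2 differed by -0.76 and -1.39 in Melanocytes and by -0.60 and -0.32 in T cells, against 0.94 and 0.11 in Langerhans cells. With 1 library at each time, these differences between cell types were not tested, and the Mt2 value in IFE.B cells lies near 0.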

How the results depend on the processing

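No paired analysis was possible because each time point has 1 library, so the time points share a replicate number and nothing else, and the library block pairs cell types within a library. Of the 12 values between cell types 8 passed, 5 without the library block, and 8 to 9 when a library was left out. Without the block Mt1 in IFE.SB against IFE.B (-0.64, adjusted p = 0.142) and Mt2 (-0.82, adjusted p = 0.288) and Mt4 (-1.87, adjusted p = 0.0893) in uHF.B against IFE.B missed the threshold. Mt1 in uHF.B against IFE.B passed with DESeq2 (-0.43), with doublets kept (-0.42) and at doubled resolution (-0.47), and ran from -0.63 to -0.37 when a library was left out. Mt4 in OB against uHF.B turned to -1.15 with doublets kept and -0.16 at doubled resolution. Without the uHF.SB cluster led by Flg, Krt1 and Krt10, an alternative chosen after seeing the data, Mt4 in uHF.SB against uHF.B missed the threshold (0.44, adjusted p = 0.0708), and Mt1 and Mt2 passed. The causes were not tested, and the share of all genes called in each alternative is not given here.

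Of the 28 time curves, 0 passed, 2 with log2(hours + 1), 1 with the rank of time, 1 with doublets kept, 3 with DESeq2, and 0 to 15 when a library was left out, where 1 residual degree of freedom remains. The share of all genes called by each alternative curve is not given here. The fold of the highest over the lowest library was 3.20 for Mt1, 2.74 for Mt2 and 9.08 for Mt4. Leaving out each library, an alternative chosen after seeing the data, gave 2.19 to 3.20, 2.51 to 2.74 and 3.44 to 9.08. With the mean of CPM per cell Mt1 gave 3.25 and Mt2 3.04, and without mitochondrial and ribosomal protein genes the folds were 2.97, 2.55 and 10.6, and in both the highest Mt2 library was 0 h. Over all deposited barcodes Mt1 gave 3.25 and Mt2 2.87, with doublets kept Mt1 gave 3.24, and at most 5% mitochondrial UMIs gave 3.12, 2.60 and 10.5. The share of IFE.SB cells with Mt4 at 4 h, against the lowest other library, was 50.2% and 70.6% without thinning, 6.27% and 40.2% with at least 2 UMIs, and 12.1% and 44.2% when thinned to 1000 UMIs. Mt4 was low outside IFE.SB, hair matrix, IRS cells and the uHF.SB cluster led by Flg, and the part of depth in this was not tested. Whether the IFE.B levels, above those of T cells in 5 libraries, exceed free RNA was not tested.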
